A study of Mus musculus with 12 samples.

Results

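Whole skin lacking Sox4 was compared with wild-type (WT) skin in older mice, 12 days after the hair had been plucked. The older mice formed the experiment labelled Exp 1, which held 6 of the 12 arrays of the series. They were WT mice 1, 2 and 3, aged 72, 72 and 69 weeks, and conditional knockout (cKO) mice 2, 5 and 6, aged 72, 72 and 68 weeks. Of all genes on the array, 16181 had a probe that 3 or more of the 12 arrays read well above background, and each of these was tested. Counts of calls, called genes and list medians are given with and without cKO mouse 5, whose array differed most from the others, and other values are with all mice unless stated.

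All mice were male, of mixed C57Bl6/129Sv background (75:25), and each gave 1 array of total skin RNA. The other 6 arrays, Exp 2, came from WT and cKO mice of 16 to 20 weeks treated alike, and the effects of age and of experiment cannot be told apart. The labels place the deletion of Sox4 in skin, but the sources used here do not name the Cre line, the cells it acts in or the deleted stretch. Nothing in the labels says whether mice were littermates, and p-values measure the spread between these mice only.

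Sox4 belongs, with Sox11 and Sox12, to the SoxC family of transcription factors, which bind DNA through a high-mobility-group box and are known for roles in progenitor cells and in developing neurons. Plucking a resting hair brings its follicle into a new growth phase. Stem cells of the bulge and hair germ then feed a matrix of dividing cells around the dermal papilla, and the matrix makes the hair shaft and the inner root sheath while melanocytes add pigment.

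The share of probes well above background ran from 53.9% to 60.8% over the 6 arrays, and the 75th percentile of intensity from 364 to 545, and cKO mouse 5 had the lowest value of each. Across genes, the array of cKO mouse 5 correlated with the other 5 at 0.956 to 0.970, while the 10 other pairs lay between 0.978 and 0.989 (genes are not independent replicates). Hair shaft keratins, inner root sheath, cornified, basal and melanocyte markers were all detected. WT mice 2 and 3 and cKO mice 2 and 6 shared slide 1, and WT mouse 1 and cKO mouse 5 shared slide 2. Slide and scan time were the same split.

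Levels are given as log2 signal minus the array's own 75th percentile, and differences are cKO minus WT on that scale. The level of the targeted gene came first. Sox4 stood at 1.90, 2.20 and 1.97 in WT mice 1, 2 and 3, and at -3.86, -3.88 and -4.26 in cKO mice 2, 5 and 6. All cKO mice lay far below all WT mice, and cKO mouse 5 did not stand apart from the other cKO mice. Sox4 fell by 6.02 (SE 0.17, adjusted p = 5.52e-08), about 65.1-fold, and by 6.08 without cKO mouse 5 (adjusted p = 8.97e-07), in limma with Benjamini-Hochberg adjustment over all genes, as for every adjusted p here. The probe was well above background in 1 of 3 cKO mice, so the fold rests on signals near the floor. A second Sox4 probe was well above background in no cKO mouse and gave a difference of -5.93. Whether the probes lie inside the deleted stretch is not stated in those sources. Of the other family members, Sox11 was not well above background on any of the 6 arrays and was not tested. Sox12 stood at -3.93, -4.00 and -3.95 in WT mice and at -3.88, -2.49 and -4.06 in cKO mice 2, 5 and 6, a difference of 0.48 (SE 0.41, adjusted p = 0.673), or -0.01 without cKO mouse 5. Its higher mean in cKO skin came from cKO mouse 5 alone. The nearest protein-coding gene tested beside Sox4, Cdkal1, differed by 0.05 (adjusted p = 0.896).

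With all mice, 19 of 16181 genes passed the threshold of 0.05 (0.117%), 17 lower (0.105%) and 2 higher (0.0124%) in cKO skin. At an unadjusted p under 0.05 there were 1828 (11.3%), 1139 lower (7.04%) and 689 higher (4.26%). Without cKO mouse 5, 22 of 16155 genes passed (0.136%), 19 lower (0.118%) and 3 higher (0.0186%), and 1365 had an unadjusted p under 0.05 (8.45%), 875 lower (5.42%) and 490 higher (3.03%). The calls shared 15 genes, 4 were made only with all mice and 7 only without cKO mouse 5. The median difference of all genes was -0.02 with all mice and -0.03 without cKO mouse 5. None of the 19 called genes had overlapping groups; over all genes, WT and cKO mice did not overlap with cKO lower in 1165 genes (7.2%) and with cKO higher in 915 (5.65%). Within slide 1 and within slide 2 the difference was -2.98 and -2.62 for Mex3a, -2.52 and -3.39 for Plppr3 and -1.34 and -1.39 for Tead2 (slide 2 holds 1 mouse a genotype, and groups that do not overlap keep their sign in any such split). With slide as a block 14 genes were called, 10 of them among the 19, with adjusted p between 0.0536 and 0.0794 for the 9 others.

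**Figure D1:**
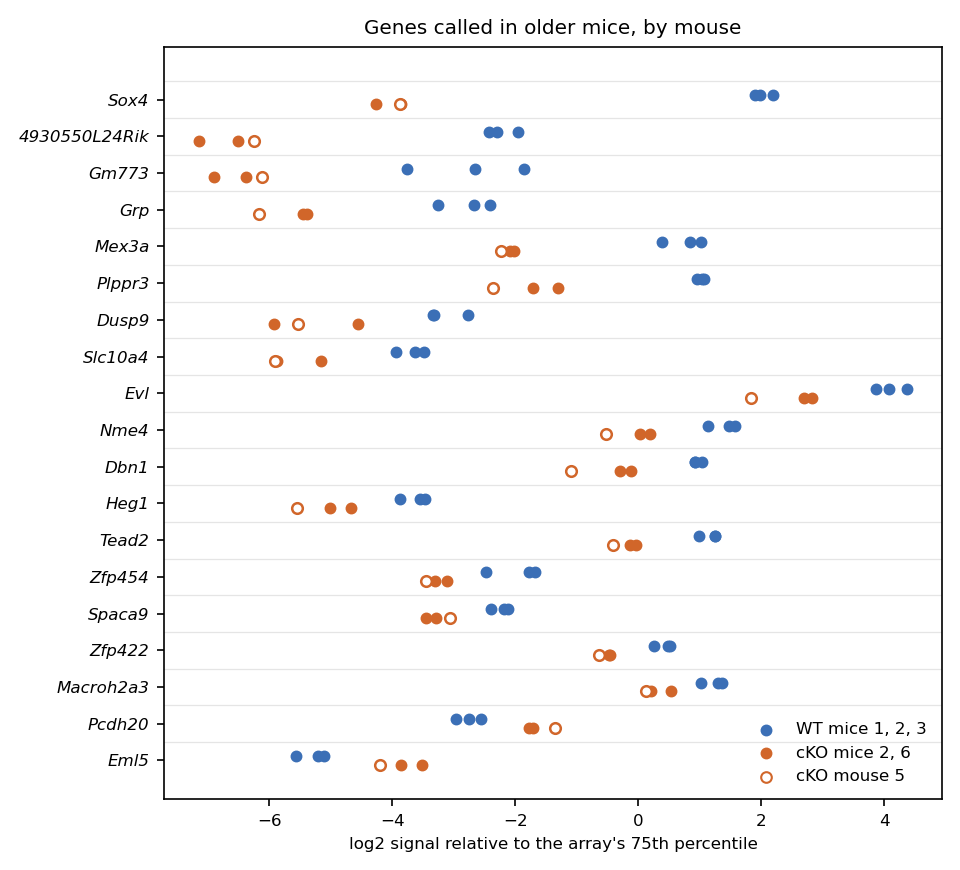
Levels of the 19 called genes in the 6 older mice. Each row is 1 gene, the horizontal axis is log2 signal minus the array's 75th percentile, filled blue points are WT mice, filled orange points cKO mice 2 and 6 and the open orange point cKO mouse 5. WT and cKO mice do not overlap in any row, and Sox4 has the widest gap, 6.02.

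The called genes lower in cKO skin included an RNA-binding protein and a transcription factor that kept their calls in nearly all alternative fits. Mex3a encodes a KH-domain RNA-binding protein known from progenitor cells of the gut. It stood at 0.39, 0.84 and 1.01 in WT mice and at -2.02, -2.23 and -2.09 in cKO mice 2, 5 and 6. The cKO mice lay close together (mean -2.11 ± 0.11, SD, n = 3) and below every WT mouse (mean 0.75 ± 0.32). Mex3a fell by 2.86 (SE 0.15, adjusted p = 1.74e-05), or 7.26-fold, and by 2.80 without cKO mouse 5 (adjusted p = 0.000186). Of the 11 listed genes of the Mex3 family and of stem cell RNA-binding proteins, 8 were tested and 1, Mex3a, was called. Over all genes 0.105% were called lower, and the list was chosen with earlier results of these data known. Mex3b stood at -2.34, -1.55 and -1.67 in WT mice and at -2.44, -1.97 and -3.05 in cKO mice. Its groups overlapped through cKO mouse 5 alone, and its difference was -0.63 (adjusted p = 0.437), or -0.89 without that mouse (adjusted p = 0.358).

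Tead2 encodes one of the TEAD factors, the DNA-binding partners of YAP in the Hippo pathway, and has been reported as a target of Sox4. Its level was 0.99, 1.26 and 1.25 in WT mice and -0.14, -0.41 and -0.04 in cKO mice 2, 5 and 6. Every cKO mouse was lower by about the same amount. Tead2 fell by 1.36 (SE 0.13, adjusted p = 0.00278), or 2.56-fold, and by 1.25 without cKO mouse 5 (adjusted p = 0.00631), and a second Tead2 probe gave -1.32. Of 14 TEAD factors and YAP targets tested, 6 were lower and the median difference was 0.03. Only Tead2 was called, against 0.105% of all genes called lower. Of 9 tested genes reported elsewhere as Sox4 targets, 6 were lower, Tead2 was called, and the median was -0.24, or -0.11 without cKO mouse 5. Among them Ezh2, the Polycomb methyltransferase, was lower in every cKO mouse than in every WT mouse, by -0.41 on average, and was not called (adjusted p = 0.295).

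Genes that bind actin and microtubules had negative differences in most cases. Of 23 tested members of that list, 19 had a negative difference, against 52.5% of all genes (54.6% without cKO mouse 5). In 11 the cKO mice lay below all WT mice, against 7.2% of all genes, and 2, Evl and Dbn1, were called, against 0.105% called lower. Without cKO mouse 5, 20 were negative, the same 2 were called, and the median went from -0.38 to -0.34. Members of this and every other list were chosen with earlier results of these data known. Counts of members set against all genes are therefore a description only. Evl, an Ena/VASP protein that promotes actin filament growth, stood at 3.87, 4.37 and 4.07 in WT mice and at 2.69, 1.83 and 2.83 in cKO mice 2, 5 and 6. All cKO mice were lower and cKO mouse 5 was lowest. Evl fell by 1.65 (SE 0.24, adjusted p = 0.0415), and by 1.35 without cKO mouse 5 (adjusted p = 0.0157). Dbn1, which encodes the actin-binding protein drebrin, stood at 1.04, 0.92 and 0.93 in WT mice and at -0.11, -1.10 and -0.29 in cKO mice. It fell by 1.46 (adjusted p = 0.0416), and by 1.16 without cKO mouse 5, where the smaller spread gave an adjusted p of 0.00452. With slide as a block the adjusted p of Dbn1 was 0.0592. Dbn1 lies on chromosome 13, as Sox4 does, and whether that location bears on its difference was not tested. Marcksl1, a membrane protein that binds actin, differed by -1.19 (adjusted p = 0.0818) and Tmsb10, a thymosin that binds actin monomers, by -0.75 (adjusted p = 0.11), both without overlap between groups and neither called. Without cKO mouse 5 they differed by -0.97 and -0.69. Map1b, which binds microtubules, had the highest difference of the list at 0.89, or 0.47 without cKO mouse 5.

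The list named neural signalling held 2 further called genes among 13 tested, against 0.105% of all genes called lower. Plppr3, a membrane protein of the phospholipid phosphatase-related family, stood at 1.03, 1.08 and 0.96 in WT mice and at -1.31, -2.36 and -1.71 in cKO mice 2, 5 and 6. It fell by 2.81 (SE 0.24, adjusted p = 0.00121), or 7.02-fold, and by 2.53 without cKO mouse 5 (adjusted p = 0.000668). The probe reading a second Plppr3 transcript was much dimmer and differed by -0.23, so the probes of this gene disagree. Grp encodes gastrin-releasing peptide, a ligand of a G protein-coupled receptor. It stood at -3.26, -2.41 and -2.67 in WT mice and was not well above background in any cKO mouse, where it read -5.38, -6.17 and -5.46. Where no mouse of a group was above background, the fold is given as a bound, taken on each array against the dimmest probe signal still above background or the gene's own signal, whichever was higher: Grp fell at least 3.96-fold (adjusted p = 0.00315), or at least 5.07-fold without cKO mouse 5, whose array had the highest such signal. Atp1a4, a sodium pump subunit, read -2.59, -2.11 and -2.10 in WT mice and -3.90, -5.53 and -4.73 in cKO mice, where 1 of 3 was well above background (adjusted p = 0.092). Nnat, which encodes neuronatin, read -0.60, -0.18 and 0.55 in WT mice and -1.70, -4.60 and -3.63 in cKO mice (adjusted p = 0.121). Neither passed the threshold, though the groups did not overlap. Of the 13 tested genes of the list, 9 had negative differences, 7 had cKO mice below all WT mice and 1 had them above, against 52.5%, 7.2% and 5.65% of all genes. The median was -0.38, or -0.65 without cKO mouse 5. These members too were chosen with earlier results of these data known, so the shares are a description only.

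Nme4, a nucleoside diphosphate kinase of mitochondria, stood at 1.14, 1.47 and 1.58 in WT mice and at 0.19, -0.52 and 0.03 in cKO mice 2, 5 and 6. It fell by 1.50 (SE 0.20, adjusted p = 0.0224), and by 1.29 without cKO mouse 5 (adjusted p = 0.0279). Zfp422, a zinc finger protein, stood at 0.25, 0.48 and 0.52 in WT mice and at -0.46, -0.64 and -0.48 in cKO mice. Its cKO mice were close together, and it fell by 0.95 (adjusted p = 0.0179), or by 0.89 without cKO mouse 5 (adjusted p = 0.0417). Spaca9, known from sperm and from cilia, fell by 1.03 (adjusted p = 0.0469, and 0.0417 without cKO mouse 5). Heg1, a membrane protein of blood vessel walls, was not well above background in any cKO mouse and fell at least 1.94-fold (adjusted p = 0.0381, and 0.0298 without cKO mouse 5). Both lost the call with slide as a block, at adjusted p = 0.0592 for Spaca9 and 0.0536 for Heg1.

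Dusp9, Slc10a4, Zfp454 and Macroh2a3 passed the threshold only with all mice, each at adjusted p = 0.0469. Dusp9, a phosphatase that switches off MAP kinases, stood at -3.34, -3.33 and -2.76 in WT mice and at -4.55, -5.53 and -5.93 in cKO mice 2, 5 and 6. Of the cKO mice 1 of 3 was well above background, so its difference, -2.19, or -2.10 without cKO mouse 5 (adjusted p = 0.119), rests on signals near the floor. Slc10a4, a transporter-like protein of synaptic vesicles, was not well above background in any cKO mouse and was at least 2.12-fold lower, or 2.71-fold without cKO mouse 5 (adjusted p = 0.123). Zfp454, a zinc finger protein, differed by -1.31 and -1.23, and Macroh2a3, a transcribed pseudogene of a histone variant, by -0.93 and -0.85 with and without cKO mouse 5. Leaving that mouse out changed these differences little, and the adjusted p of both rose to 0.119. Of 18 tested genes of FGF and MAP kinase feedback, 13 had negative differences, against 52.5% of all genes. Their median was -0.33, or -0.35 without cKO mouse 5. Only Dusp9 was called with all mice, against 0.105% of all genes called lower, and none without cKO mouse 5. Etv4, a transcription factor induced by FGF signals, read 2.96, 3.39 and 3.16 in WT mice and 2.37, 1.65 and 2.41 in cKO mice (adjusted p = 0.188).

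Leaving out cKO mouse 5 added 7 genes. In Zfp184 that mouse lay far below the other cKO mice, and in the 6 others nearer to WT than they did. Tes encodes testin, a protein of focal adhesions. It stood at 0.85, 0.85 and 0.87 in WT mice and at -0.77, 0.08 and -0.85 in cKO mice 2, 5 and 6. The WT mice were nearly equal, and cKO mouse 5 lay between them and the other cKO mice. The difference of -1.37 had an adjusted p of 0.0523 with all mice, and without cKO mouse 5 Tes fell by 1.66 (adjusted p = 0.00031). Cd24a, a surface glycoprotein of epithelial progenitors, read 3.25, 3.52 and 3.19 in WT mice and 2.46, 3.40 and 2.21 in cKO mice, where cKO mouse 5 lay among the WT mice. It fell by 0.99 without cKO mouse 5 (adjusted p = 0.0417; 0.401 with all mice). S100a8, a calcium-binding protein of stressed keratinocytes and neutrophils, fell by 0.99 without that mouse (adjusted p = 0.0438; 0.193 with all mice), and Neto2, an auxiliary protein of kainate receptors, fell at least 3.01-fold without cKO mouse 5 (adjusted p = 0.0298; 0.0657 with all mice). No cKO mouse was well above background in Neto2, and its own signals in cKO mice 2 and 6, -4.94 and -4.44, set that bound. Zfp184, a zinc finger protein, stood at -3.37 and -2.71 in cKO mice 2 and 6 and at -5.38 in cKO mouse 5, and fell by 1.90 without the latter (adjusted p = 0.0215). Like Dbn1, Zfp184 lies on the chromosome of Sox4. Hif3a, a member of the hypoxia-inducible factor family, rose by 1.43 without cKO mouse 5 (adjusted p = 0.0417; 0.275 with all mice), and the unnamed gene Gm4907 fell by 1.62 without it (adjusted p = 0.0279).

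Both genes higher with all mice were also called without cKO mouse 5. Pcdh20, a protocadherin that mediates cell adhesion, stood at -2.97, -2.56 and -2.76 in WT mice and at -1.77, -1.35 and -1.71 in cKO mice 2, 5 and 6. All cKO mice were higher, and the gene rose by 1.15 (SE 0.14, adjusted p = 0.0179), or by 1.02 without cKO mouse 5 (adjusted p = 0.0279). Eml5, a microtubule-binding protein, was not well above background in any WT mouse, at -5.21, -5.57 and -5.12, and stood at -3.51, -4.20 and -3.86 in cKO mice. It rose at least 2.00-fold (adjusted p = 0.0179), or at least 2.26-fold without cKO mouse 5 (adjusted p = 0.00763). With slide as a block neither passed, at adjusted p = 0.0591 for Pcdh20 and 0.0536 for Eml5.

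Both called genes with identifier names lie on the X chromosome and were read above background in older WT mice only. 4930550L24Rik stood at -2.30, -2.42 and -1.95 in WT mice 1, 2 and 3 and at -7.14, -6.25 and -6.50 in cKO mice 2, 5 and 6, and was at least 5.83-fold lower, or 7.45-fold without cKO mouse 5 (adjusted p = 7.61e-05 and 0.000247). Gm773 stood at -3.77, -1.86 and -2.66 in WT mice and at -6.90, -6.12 and -6.38 in cKO mice, and was at least 4.02-fold lower, or 5.14-fold without cKO mouse 5 (adjusted p = 0.0064 and 0.0157). Both entered the test only through the 3 older WT arrays, the group in which they were high, so they had to differ from the other groups and their p-values are to be read with that selection. Both were also called in the fit with no filter on background. In the younger mice WT skin was as low as cKO skin: 4930550L24Rik read -7.15, -6.52 and -7.38 in WT mice 4, 5 and 6 and -7.45, -6.91 and -7.21 in cKO mice 1, 3 and 4. Gm773 read -7.02, -7.10 and -7.30 in younger WT mice and -7.28, -6.80 and -6.68 in younger cKO mice. The genes are not neighbours, and the tested protein-coding genes within 5 places of them, Fgf13 and Ints6l among them, were not called, with differences of -0.20 for Fgf13 and 0.13 for Ints6l.

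**Figure D2:**
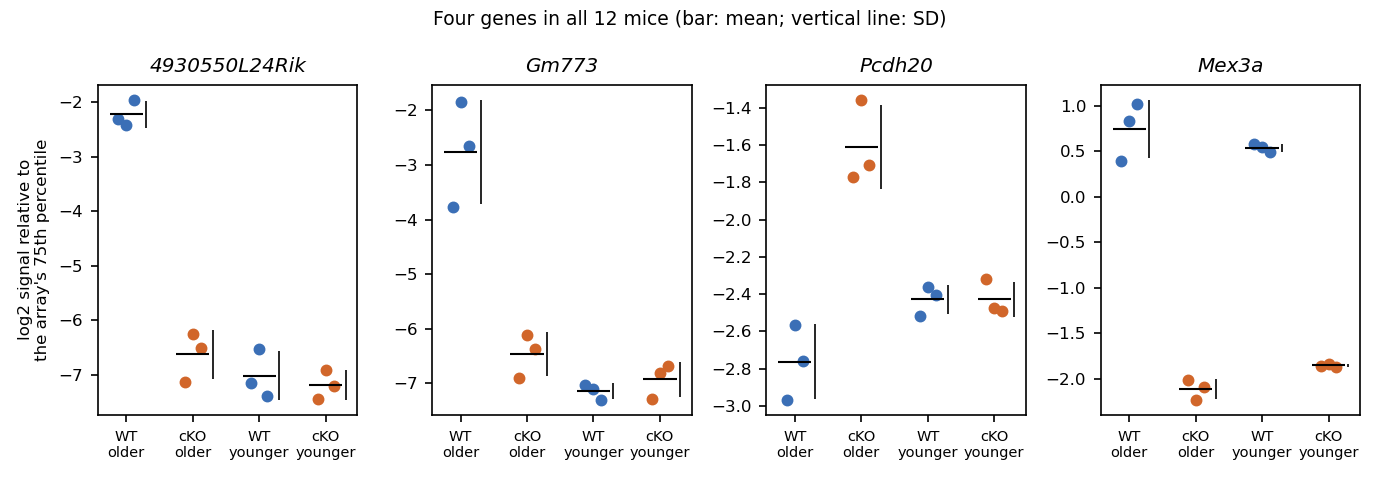
Levels of 4930550L24Rik, Gm773, Pcdh20 and Mex3a in all 12 mice, as log2 signal minus the array's 75th percentile. Points are mice, the horizontal bar is the group mean and the vertical line 1 SD. In 4930550L24Rik and Gm773 the 3 older WT mice stand above all 9 other mice, in Pcdh20 the 3 older cKO mice do, and in Mex3a the cKO mice of both experiments lie below the WT mice of both.

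The difference between genotypes in the older mice was set beside that in the younger mice, which were other animals. Both differences came from the same fit of 12 arrays, with a shared estimate of each gene's spread. Their p-values are therefore not independent. In the younger mice 10 of 16181 genes were called (0.0618%), 9 lower (0.0556%) and 1 higher (0.00618%), and 5 of the 19 were among them: Sox4, Mex3a, Plppr3, Tead2 and Zfp422. Of the 19, 18 had the same direction in the younger mice, and 13, all lower, had an unadjusted p under 0.05 with that direction. Over all 16181 genes, 755 had such a p in the younger mice, 543 lower and 212 higher. The share of all genes with the same direction in both experiments was not counted. In 18 of the 19 the difference was smaller in the younger mice. The 19 were chosen by their differences in the older mice, which favours large values in those mice, so this count is a description only. The 4 genes lower in older cKO skin without such a p in younger mice were 4930550L24Rik, Gm773, Heg1 and Spaca9. Heg1 differed by -0.10 and Spaca9 by -0.31 in younger mice. The 2 genes higher in older cKO skin differed by 0.15 for Eml5 and by 0.0011 for Pcdh20 in younger mice. The difference between the differences passed the threshold in 1 of 16181 genes (0.00618%), 4930550L24Rik, at -4.23 (SE 0.39, adjusted p = 0.00985; -4.42 and adjusted p = 0.0143 without cKO mouse 5), a gene tested only through the older WT group in which it was high. For Pcdh20 it was 1.15, for Eml5 1.29 and for Heg1 -1.35, each at adjusted p = 1.

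**Figure D3:**
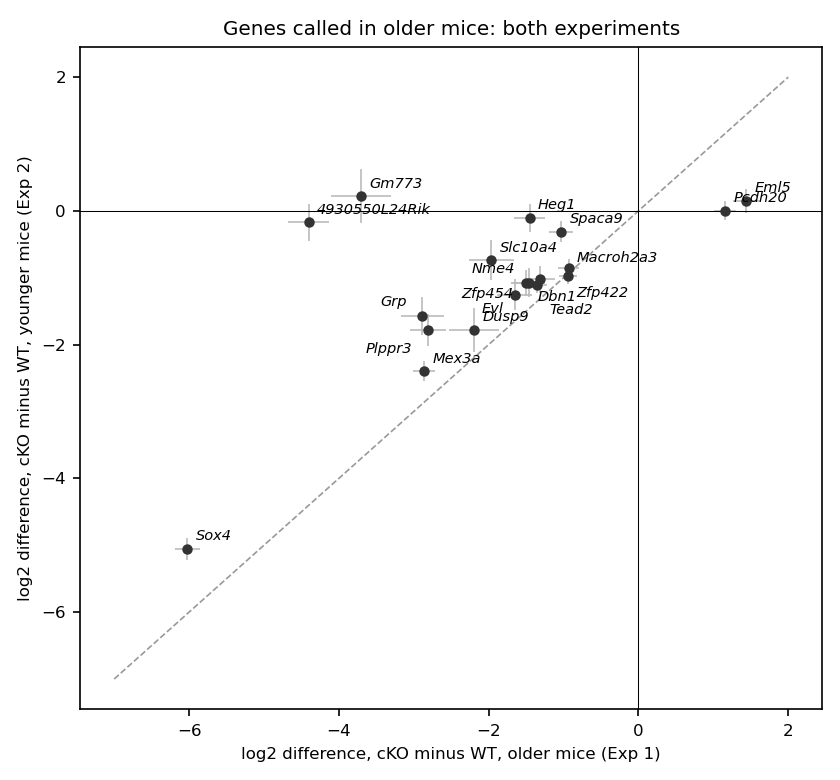
Log2 difference between cKO and WT skin of the 19 called genes in older mice (horizontal axis) and in younger mice (vertical axis), with SE as error bars and the line of equal differences dashed. Most points lie above the line on the left of the plot, so 18 of 19 differences are smaller in younger mice, though the genes were chosen by the older mice, and 4930550L24Rik and Gm773 lie near 0 in younger mice.

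Promoter sequences of the called genes were searched for the core bound by SOX factors, AACAAAG, on either strand (CTTTGTT on the other), and for the shorter ACAAAG that it contains, in RefSeq windows of 250 bases before to 50 after each gene's start (build GRCm38.p6). Of the 14 called lower genes with an entry, 3 held AACAAAG (21.4%), against 5.27% of the 12811 tested genes with an entry, and 7 held ACAAAG (50%) against 17.7%. Neither of the 2 called higher genes held a match. The 3 promoters are shown because they carry the longer match, as the 250 bases before the start, 5′ to 3′ on the strand of the gene, with every match to either form in capitals. They lie at chr7:45215542-45215791 (plus strand) for Tead2, chr6:116628702-116628951 (minus strand) for Zfp422 and chr5:73006654-73006903 (plus strand) for Slc10a4.
Tead2: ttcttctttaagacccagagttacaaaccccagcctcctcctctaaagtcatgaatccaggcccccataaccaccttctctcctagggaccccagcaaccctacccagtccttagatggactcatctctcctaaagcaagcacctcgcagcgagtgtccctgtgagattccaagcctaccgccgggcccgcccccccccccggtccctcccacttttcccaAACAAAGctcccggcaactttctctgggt
Zfp422: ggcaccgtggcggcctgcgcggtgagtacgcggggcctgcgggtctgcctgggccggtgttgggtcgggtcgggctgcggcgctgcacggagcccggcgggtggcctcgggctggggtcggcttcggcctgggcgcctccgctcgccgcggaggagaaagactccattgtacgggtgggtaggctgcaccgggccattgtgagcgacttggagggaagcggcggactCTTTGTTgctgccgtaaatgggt
Slc10a4: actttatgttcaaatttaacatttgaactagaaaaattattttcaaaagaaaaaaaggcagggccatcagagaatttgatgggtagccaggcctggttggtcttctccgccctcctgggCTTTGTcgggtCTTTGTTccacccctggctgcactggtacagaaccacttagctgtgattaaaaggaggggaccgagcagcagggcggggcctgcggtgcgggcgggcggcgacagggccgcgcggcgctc
The longer match begins 29 bases before the start in Tead2, 23 bases before it in Zfp422 and 120 bases before it in Slc10a4. Tead2 and Zfp422 fell with and without cKO mouse 5, and Slc10a4 passed only with all mice. The promoters of Mex3a and Sox4 held neither form. A match is a run of letters and not a measured binding site, and these windows were not tested for binding here.

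No gene of the mitosis and DNA replication lists was called, and their members were also chosen with earlier results of these data known. Of 24 tested mitosis genes, all 24 had negative differences with all mice and without cKO mouse 5, against 52.5% and 54.6% of all genes, and in 14 every cKO mouse lay below every WT mouse, against 7.2% of all genes. The median was -0.55 with all mice and -0.48 without cKO mouse 5, beside -0.02 and -0.03 over all genes. Tpx2, which builds the spindle, stood at 0.73, 0.97 and 0.96 in WT mice and at 0.21, 0.01 and 0.34 in cKO mice 2, 5 and 6, a difference of -0.70 (adjusted p = 0.142). Top2a, which untangles replicated DNA, read 1.38, 1.69 and 1.68 against 0.97, 0.74 and 1.13 (adjusted p = 0.184). The groups were apart in both, by less than the correction over all genes required. Of 25 DNA replication genes, 24 were negative, 10 did not overlap, none was called, and the median was -0.49, or -0.33 without cKO mouse 5. Mcm7, a subunit of the replicative helicase, read 3.36, 3.75 and 3.58 in WT mice and 2.95, 2.64 and 3.11 in cKO mice (adjusted p = 0.183). Both medians kept their sign in all 27 alternative fits, from -0.70 to -0.42 for mitosis and from -0.64 to -0.33 for replication. Within slide 1 and slide 2 the mitosis median was -0.59 and -0.41 and the replication median -0.43 and -0.51. In whole skin, fewer cells of a type and less RNA per cell cannot be told apart, here and in every list that follows.

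Hair follicle lists depended on cKO mouse 5. Of 13 hair shaft keratins, 11 were negative with all mice (median -0.76) and 4 without cKO mouse 5 (median 0.04). That mouse was lowest of the 6 in 12 of the 13, against 26.4% of all genes. Krt33b, a keratin of the hair cortex, read 7.95, 7.78 and 8.58 in WT mice and 7.27, 4.80 and 7.89 in cKO mice 2, 5 and 6, and the other cKO mice were close to WT. The median of inner root sheath genes went from -0.29 to 0.17, and that of hair matrix regulators from -0.44 to 0.06. Lef1, a mediator of Wnt signals in the matrix, stood at 2.24, 3.13 and 2.87 in WT mice and at 2.12, -1.10 and 2.69 in cKO mice. Shh, the ligand that drives matrix growth, read -1.92, -1.74 and -1.71 in WT mice and -2.38, -5.54 and -2.27 in cKO mice, lower in all cKO mice but by far the most in cKO mouse 5 (adjusted p = 0.426, and 0.324 without it). Melanocyte genes had a median of -1.46 with all mice, with 12 of 12 negative, and -0.44 without cKO mouse 5, with 11 of 12 negative. The size of that median thus depended on cKO mouse 5, but its direction did not. Dct, an enzyme of melanin synthesis, read 6.18, 6.87 and 6.98 in WT mice and 5.44, 3.52 and 6.72 in cKO mice, so cKO mouse 2 was also below WT and cKO mouse 6 among them. The adipocyte median went from -0.23, with 9 of 14 genes negative, to 0.22, with 4 of 14 negative. Adipoq, which encodes adiponectin, read 2.62, 3.25 and 3.62 in WT mice and 3.06, 0.10 and 3.49 in cKO mice, where cKO mouse 5 alone was low. Lep, which encodes leptin, had the lowest difference of the list in both fits, and stood at -1.26, -0.95 and 0.17 in WT mice and at -1.92, -6.05 and -2.24 in cKO mice. No member of these 5 lists was called with all mice or without cKO mouse 5.

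Some follicle lists moved less with that mouse. Dermal papilla genes had a median of -0.55 with all mice and -0.41 without cKO mouse 5, 13 of 16 being negative in both. Alpl, the alkaline phosphatase that marks the papilla, read -1.03, -0.71 and -0.85 in WT mice and -1.80, -1.79 and -1.29 in cKO mice (difference -0.76, adjusted p = 0.172). All cKO mice were below all WT mice by a similar step. Wif1, a secreted Wnt inhibitor, read 2.59, 3.05 and 2.98 against 1.96, 0.30 and 2.30 (adjusted p = 0.287). Hedgehog pathway genes had medians of -0.45 and -0.27, with 10 of 12 and 11 of 12 negative, and bulge and hair germ genes -0.01 with all mice, with 8 of 16 negative in both. Smo, the signal transducer of the Hedgehog pathway, read 4.14, 4.32 and 4.25 in WT mice and 3.95, 3.98 and 3.96 in cKO mice (adjusted p = 0.336). Another kept Smo probe differed in the opposite direction, so the probes of this gene disagree. Lgr5, a stem cell receptor, read 2.26, 2.16 and 2.46 in WT mice and 1.87, 1.60 and 2.20 in cKO mice, with overlap.

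**Figure D4:**
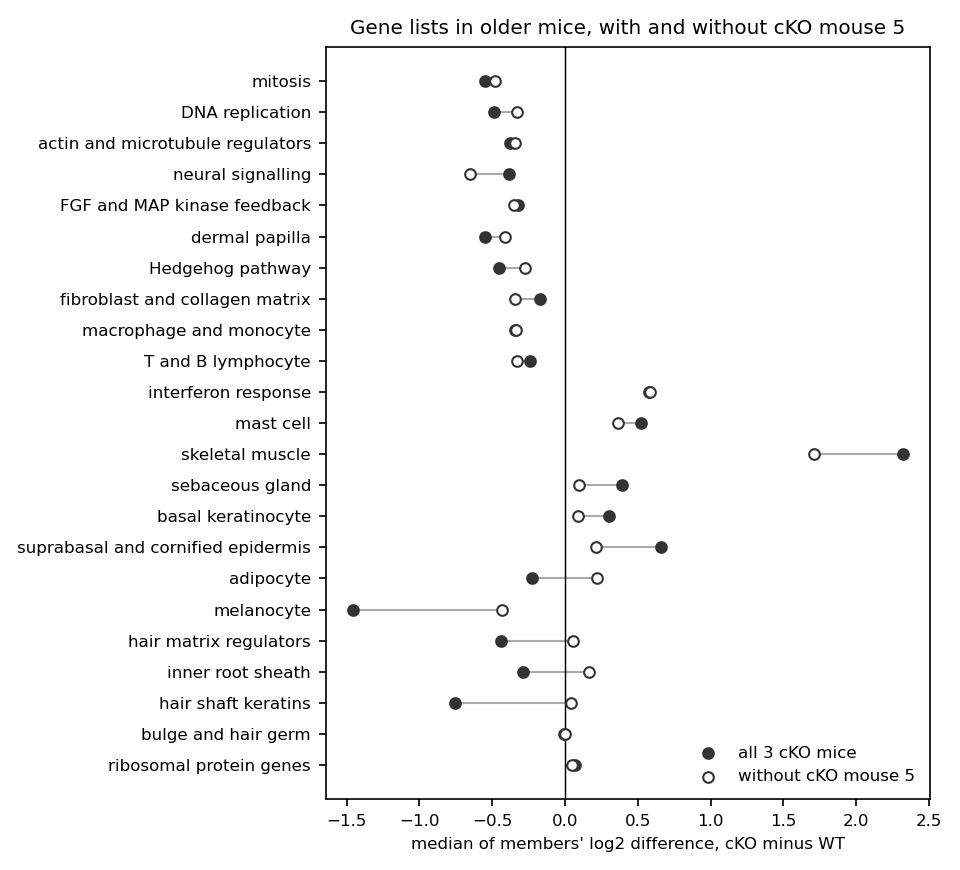
Median log2 difference between cKO and WT skin over the members of gene lists, with all 3 cKO mice (filled) and without cKO mouse 5 (open). Hair shaft, inner root sheath, hair matrix and adipocyte lists change sign when cKO mouse 5 is left out, and mitosis, replication and actin lists stay below 0.

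In the epidermis the opposite order held. All 20 suprabasal and cornified genes were positive with all mice (median 0.66) and 17 without cKO mouse 5 (median 0.21). In 19, cKO mouse 5 was the highest of the 6, against 28.3% of all genes. Casp14, the protease of cornifying cells, read 4.41, 3.88 and 3.07 in WT mice and 5.12, 5.57 and 4.04 in cKO mice, and Flg2, a filaggrin relative, 4.55, 4.23 and 4.15 against 5.21, 6.15 and 4.46. Both overlapped between groups and neither was called. Basal keratinocyte genes had medians of 0.30 and 0.09, and sebaceous genes 0.39 and 0.09. Of 12 sebaceous genes, 3 were negative with all mice, the lowest at -1.37, and 5 without cKO mouse 5. Among the sebaceous genes, Scd3, a lipid desaturase, read 2.35, 1.65 and 1.53 in WT mice and 2.86, 2.65 and 2.38 in cKO mice. It was higher in every cKO mouse and not called (adjusted p = 0.269).

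Among cell types beside the follicle, skeletal muscle genes differed most and followed mice 5 and 6. All 22 had positive differences with all mice and without cKO mouse 5, and none was called. In 11 every cKO mouse was above every WT mouse, against 5.65% of all genes. Of the 22, 2 were well above background in no older mouse. The mean over the list was -2.69, -3.57 and -3.59 in WT mice 1, 2 and 3, and -2.61, 0.11 and -0.15 in cKO mice 2, 5 and 6. Thus cKO mouse 2 was close to WT mouse 1, and cKO mice 5 and 6 were far above all others. Myh1, a fast myosin heavy chain, read -3.74, -6.19 and -4.41 in WT mice and -2.44, 1.06 and 2.45 in cKO mice (difference 5.14, SE 1.60, adjusted p = 0.294). With the mean of this list as a covariate 7 genes were called, 6 of them among the 19, and the mitosis median was -0.42 and the actin and microtubule median -0.32. Within slide 1 and slide 2 the muscle median was 2.03 and 2.95. The part of muscle in the other differences was otherwise not tested.

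Interferon response genes had a median of 0.58 with all mice and 0.59 without cKO mouse 5, with 13 of 16 and 14 of 16 positive and none called. Psmb8 and Psmb9, subunits of the immunoproteasome, were higher in every cKO mouse: Psmb8 read 1.72, 1.47 and 1.60 in WT mice and 2.10, 2.09 and 2.41 in cKO mice (adjusted p = 0.183). The list's mean was highest in cKO mouse 6 at 0.44, then in cKO mouse 5 at -0.28, and cKO mouse 2, at -0.82, was below all WT mice. Mast cell genes had medians of 0.52 and 0.37, and all 8 were positive in both. Mrgprb2, a mast cell receptor, read -1.96, -2.70 and -2.10 in WT mice and -1.26, -0.82 and -1.78 in cKO mice (adjusted p = 0.229). Fibroblast and collagen genes had medians of -0.17 and -0.35, macrophage genes -0.34 and -0.34, lymphocyte genes -0.24 and -0.33, and ribosomal protein genes 0.07 and 0.04. No member of these lists was called either way.

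**Figure D5:**
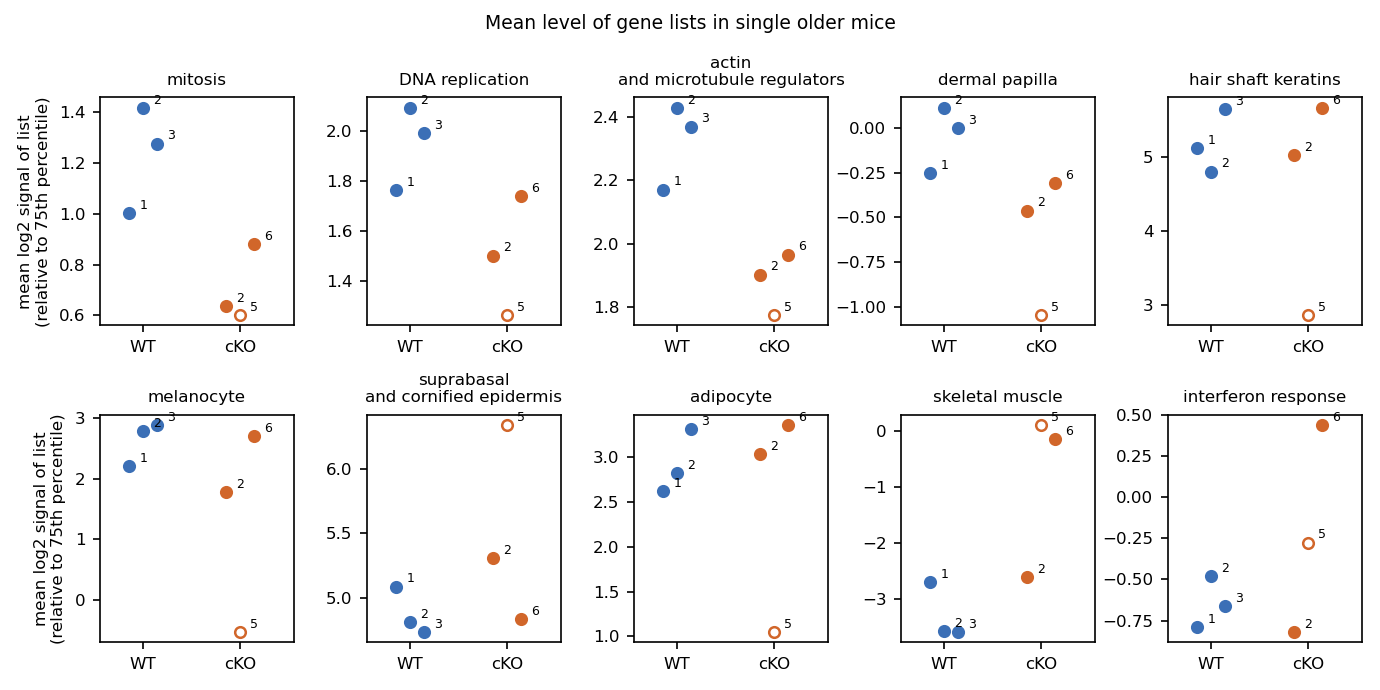
Mean level of 10 gene lists in each older mouse, as log2 signal minus the array's 75th percentile, with mouse numbers beside the points. WT points are blue, cKO points orange and cKO mouse 5 open. In the hair shaft, melanocyte and adipocyte panels cKO mouse 5 lies alone at the bottom, in the muscle panel cKO mice 5 and 6 lie at the top, and in the mitosis and actin panels all 3 cKO mice lie below the 3 WT mice.

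The array of cKO mouse 5 was then described against the other cKO mice. It lay over 1 log2 unit above the mean of cKO mice 2 and 6 in 1047 genes and below it in 1077, together 13.1% of genes. The same counts were 345 and 368 for cKO mouse 2 and 737 and 647 for cKO mouse 6, each against the mean of the other cKO mice. The median SD of a gene was 0.19 in WT mice, 0.27 in cKO mice and 0.18 in cKO mice 2 and 6. Among the genes farthest below in cKO mouse 5 were Oca2, Gpr143 and Trpm1 of melanocytes, Lep, and Per2, a repressor of the circadian clock. Per2 read -2.98, -3.98 and -2.72 in WT mice and -1.68, -6.33 and -1.56 in cKO mice 2, 5 and 6. Cyp2e1, a cytochrome P450, read -2.80, -1.75 and -2.17 in WT mice and 0.66, -3.91 and 1.89 in cKO mice, so cKO mice 2 and 6 were above and cKO mouse 5 below the WT mice. Fads2, a fatty acid desaturase of the sebaceous list, read -5.13 in cKO mouse 5 and -1.24 to -0.24 in the other 5 mice. Among the genes farthest above were Lce3e of the cornified envelope, the stefin Stfa1, the serpin Serpinb6d, the cytokine Il1f6, the defensin Defb7 and Myh4, a fast myosin. Stfa1 read 2.97, 4.67 and 3.48 in WT mice and 2.23, 7.02 and 1.67 in cKO mice. In Lce3e, Stfa1, Serpinb6d and Il1f6, cKO mouse 5 lay above all WT mice, and in all but Il1f6 cKO mice 2 and 6 lay below them.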

How the data were processed

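Total skin RNA was measured on 1-colour Agilent arrays, 1 per mouse. Per the file headers, the scanner files hold Feature Extraction 11.5.1.1 output: gProcessedSignal is a background-subtracted intensity, and 0 or 1 flags (other values) mark spots above background, saturated or outlying, per the file headers. The authors' deposited value table holds log2 values, used as an alternative only. The submitters' processing notes name limma; the steps it was used for are not stated in the sources here.

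Outlier spots were left out, spots averaged per probe, log2 taken and the array's 75th percentile subtracted. Probes were kept if above background on at least 3 of 12 arrays and named through RefSeq accessions (27509 of 55681 probes); the brightest kept probe stood for a gene. The 12 arrays were fitted as 4 group means with limma 3.58.1 in R 4.3.3, two-sided, with Benjamini-Hochberg adjustment over all genes at 0.05, with and without cKO mouse 5. The code was tested on simulated data. Errors are SD for means and SE for differences. The number of arrays limits the precision.

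Genes named were the SoxC genes, all genes called with all mice or only without cKO mouse 5, up to 4 list members by smallest p, and the 10 farthest each way in cKO mouse 5; identifiers were named where a count was 5 or fewer. Other genes given were chosen after their values were seen. Members, lists and tests were chosen with earlier results of these data known. Alternatives varied slide, array-name tag, scaling, background correction, filter, probes, weights, a muscle covariate and single arrays.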

Additional observations from a re-analysis of the deposited data

Results flagged for a closer look

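The difference between cKO and WT skin of 4930550L24Rik was -4.40 in older mice and -0.17 in younger mice, and the difference between these differences was -4.23 (SE 0.39, adjusted p = 0.00985 in limma). It is listed because the genotype effect differed between the experiments by a test of that difference. The older WT mice, 3 of 3, were well above background, and no other mouse was, so the gene passed the filter only through the group in which it was high and the test is to be read with that selection. Without a filter the adjusted p was 0.018. Within slide 1 it was 0.204. It was 0.455 with a trended and robust fit, 0.167 in the fit that had slide as a block, 0.119 in the authors' value table (0.187 leaving out cKO mouse 1 there), 0.0595 without WT mouse 4, 0.0507 without cKO mouse 3 and 0.059 without cKO mouse 4. Without an older WT mouse, or with probes above background on all arrays, the gene was not tested.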

How the results depend on the processing

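No paired analysis was possible because the labels give no pairing of WT with cKO mice. The 19 calls became 8 with the P1 or P2 tag of the array names added to the fit, 3 with the older mice alone, 7 with median scaling, 8 in the authors' table (7 leaving out cKO mouse 1 there, an alternative chosen after seeing the data), 11 without a filter, 12 with probes above background on all arrays, 99 with array weights (75 lower, all 19 among them), 7 with the muscle covariate and 1, Sox4, within slide 1. The 22 calls without cKO mouse 5 became 1 within slide 1, 2 with the older mice alone, 12 with median scaling, 8 in the authors' table, 12 without a filter and 11 with the muscle covariate. The 1 call between experiments became 0 with slide as a block, in the authors' table (also leaving out cKO mouse 1 there), with probes above background on all arrays and with a trended and robust fit, 2 with array weights and 7 within slide 1, where 4930550L24Rik was not among them.

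Leaving out 1 mouse gave 5 calls (WT mouse 3) to 55 (cKO mouse 6): 6 without WT mouse 2, 9 without WT mouse 4, 11 without WT mouse 1 or cKO mouse 1, and 12 without WT mouse 5, WT mouse 6 or cKO mouse 4. Of the 55, 17 were among the 19. Between experiments the range was 0 to 2. No called gene turned its direction in any of these fits. Sox4 kept its call in 26 of 26 fits, Mex3a in 26 of 27, Plppr3 and Tead2 in 24 of 27, 4930550L24Rik in 22 of 23, Grp in 22 of 26, Nme4 in 19 of 27, Gm773 in 18 of 23, Zfp422 in 17 of 27, Pcdh20 in 16 of 27, Eml5 in 12 of 26, Dbn1 in 11 of 27 and Evl in 10 of 27. Macroh2a3 kept it in 6, Heg1, Zfp454 and Spaca9 in 4, Slc10a4 in 3 and Dusp9 in 2. Leaving out any older WT mouse drops 4930550L24Rik and Gm773 from the genes tested, since each was above background in those 3 mice only. The cause of the other changes was not tested. Signals near background limit the folds of Sox4, Grp, Heg1, Slc10a4, Dusp9, Neto2, Eml5, 4930550L24Rik and Gm773.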

Other observations

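No member of the following gene lists was called in older mice, with or without cKO mouse 5. Differences are cKO minus WT and levels are log2 signals scaled to each array's 75th percentile, as in the report. Smooth muscle and pericyte genes had a median difference of 0.18, or 0.10 without cKO mouse 5. Myh11, the smooth muscle myosin heavy chain, read 0.13, 0.06 and -0.28 in WT mice 1, 2 and 3 and 1.21, 1.03 and 0.49 in cKO mice 2, 5 and 6, higher in every cKO mouse (difference 0.94, adjusted p = 0.183 in limma). Langerhans and dendritic cell genes had a median difference of 0.08, or 0.10 without cKO mouse 5, within which Cd207, the Langerhans cell lectin, differed by 0.60 (adjusted p = 0.396) and Itgax, an integrin of dendritic cells, by -0.94 (adjusted p = 0.343).

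Among cell cycle regulators of G1, 12 of 18 had negative differences (median -0.09), and Cdk4, the kinase that works with cyclin D, read 5.06, 5.42 and 5.17 in WT mice and 4.64, 4.40 and 4.69 in cKO mice (adjusted p = 0.183). Polycomb and chromatin genes had a median difference of -0.08, or -0.13 without cKO mouse 5, with Bmi1, a subunit of a Polycomb repressive complex, at 1.08 ± 0.11 in WT mice and 0.59 ± 0.17 in cKO mice (SD, n = 3 each, limma adjusted p = 0.183). Gdf15, a stress-induced secreted factor of the p53 target list, was well above background in every WT mouse and in no cKO mouse (adjusted p = 0.183, at least 2.70-fold lower), while the median of that list was 0.09, or -0.03 without cKO mouse 5. Per1, a clock gene listed with hair cycle arrest signals, read 3.03, 2.34 and 3.39 in WT mice and 4.78, 3.07 and 4.05 in cKO mice (limma adjusted p = 0.36, and 0.168 without cKO mouse 5), and cKO mouse 5 lay within the range of the WT mice. Notch pathway genes had a median difference of 0.02, or 0.04 without cKO mouse 5. Senescence secretory factors had a median of -0.02, or -0.13 without that mouse.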
